A study of Homo sapiens with 8 samples.

Results

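The 34 genes described here encode the route from glucose uptake to lactate export, the PFKFB and PDK enzymes that set its pace, and enzymes of glycogen storage and breakdown. They were taken from a fixed list of symbols, not by their values. The list was chosen with earlier results of these data known. The genes make up 34 of the 60234 genes of the normoxia table and of the 60612 genes of the hypoxia table. The cells were DLD1, an established line from a human colorectal adenocarcinoma, and their poly(A) RNA was sequenced in 8 libraries that form 4 groups of 2. Control cells carried the hairpin labelled shNT (genotype label WT) and knockdown cells the hairpin labelled shPP (genotype label PPA2 knockdown), each held for 12 hours in normoxia or in hypoxia. PPA2 encodes the pyrophosphatase of the mitochondrial matrix. The labels do not state how many hairpins against PPA2 were used and name no rescue, so an off-target effect and an effect of losing PPA2 cannot be told apart. Nor do the labels state that replicates came from separate cultures, and the p-values here measure a spread between libraries that may be technical.

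Glycolysis splits 1 glucose into pyruvate in a chain of cytosolic steps, and lactate dehydrogenase turns pyruvate into lactate, which is exported. Phosphofructokinase is a main point of control, and PFKFB enzymes make and remove its strongest activator. Pyruvate dehydrogenase kinases (PDKs) switch off the complex that would carry pyruvate into mitochondrial oxidation. Hypoxia-inducible factors (HIFs) raise transcription of many of these genes in low oxygen, through sites that hold the letters ACGTG or GCGTG, and colorectal cancer lines are known for high glucose uptake and lactate release.

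Promoter windows of 6 members are shown, chosen by their falls or by opposite changes between oxygen levels. These classes overlap, since ALDOC fell in normoxia and also rose in hypoxia. PGK1 and ALDOC fell most in normoxia, LDHB and SLC2A1 fell most in hypoxia among the members with a window, and GBE1 and LDHA, chosen after their values were seen, fell in normoxia and rose in hypoxia. Sequences are from RefSeq on GRCh38.p14 and run 5′ to 3′ on the strand of the gene, from 250 bases before to 50 bases after an annotated start. Capitals mark ACGTG or GCGTG on either strand, so that CACGT and CACGC are the same letters read on the other strand. The PGK1 window lies at chrX:78103998-78104297 (plus strand), that of ALDOC at chr17:28576846-28577145 (minus), that of LDHB at chr12:21657793-21658092 (minus), that of SLC2A1 at chr1:42958819-42959118 (minus), that of GBE1 at chr3:81761596-81761895 (minus) and that of LDHA at chr11:18394313-18394612 (plus, 1 of its 2 windows).
PGK1: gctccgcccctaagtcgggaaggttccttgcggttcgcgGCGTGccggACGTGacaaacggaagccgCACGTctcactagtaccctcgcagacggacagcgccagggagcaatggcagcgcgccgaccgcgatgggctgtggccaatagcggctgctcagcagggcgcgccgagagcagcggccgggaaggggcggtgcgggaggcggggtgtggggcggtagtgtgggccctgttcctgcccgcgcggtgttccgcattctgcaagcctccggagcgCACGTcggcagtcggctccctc
ALDOC: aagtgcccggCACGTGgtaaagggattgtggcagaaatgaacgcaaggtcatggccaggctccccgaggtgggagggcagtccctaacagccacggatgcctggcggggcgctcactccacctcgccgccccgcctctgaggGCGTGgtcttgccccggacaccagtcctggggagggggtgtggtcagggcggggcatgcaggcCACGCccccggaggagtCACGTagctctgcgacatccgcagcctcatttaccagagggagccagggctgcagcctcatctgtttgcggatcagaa
LDHB: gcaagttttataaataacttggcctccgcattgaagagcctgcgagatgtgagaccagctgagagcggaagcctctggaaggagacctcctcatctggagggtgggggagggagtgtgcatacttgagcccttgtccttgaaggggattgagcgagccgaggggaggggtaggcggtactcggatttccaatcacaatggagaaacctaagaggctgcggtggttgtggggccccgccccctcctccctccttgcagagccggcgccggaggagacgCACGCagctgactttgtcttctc
SLC2A1: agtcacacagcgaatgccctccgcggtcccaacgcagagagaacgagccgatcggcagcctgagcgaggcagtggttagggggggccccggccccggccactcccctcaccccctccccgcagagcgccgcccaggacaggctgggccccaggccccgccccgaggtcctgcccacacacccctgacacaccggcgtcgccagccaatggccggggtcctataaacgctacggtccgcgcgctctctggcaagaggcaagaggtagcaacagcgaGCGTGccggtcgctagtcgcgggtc
GBE1: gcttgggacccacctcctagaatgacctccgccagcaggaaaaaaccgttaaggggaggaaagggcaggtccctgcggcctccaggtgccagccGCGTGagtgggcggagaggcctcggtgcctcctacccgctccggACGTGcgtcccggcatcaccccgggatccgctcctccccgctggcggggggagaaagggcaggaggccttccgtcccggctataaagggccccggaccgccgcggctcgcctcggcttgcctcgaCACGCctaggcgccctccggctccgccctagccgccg
LDHA: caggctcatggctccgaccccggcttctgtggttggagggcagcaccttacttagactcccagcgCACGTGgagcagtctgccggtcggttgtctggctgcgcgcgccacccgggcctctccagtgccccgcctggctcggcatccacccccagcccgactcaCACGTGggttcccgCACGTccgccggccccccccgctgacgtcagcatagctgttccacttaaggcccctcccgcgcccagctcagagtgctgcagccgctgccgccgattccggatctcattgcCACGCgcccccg
The PGK1 window held ACGTG 3 times and GCGTG once, counting both strands. The ALDOC window held ACGTG 3 times and GCGTG 2 times. A CACGTG was counted as ACGTG once on each strand, which applies to 1 stretch of ALDOC and 2 of LDHA. The LDHA window shown had 5 matches of ACGTG and 1 of GCGTG, and the other LDHA window had 0 and 1. The GBE1 window had 1 and 2. LDHB and SLC2A1 each had a single GCGTG and no ACGTG.

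RefSeq windows were found for 31 of the 34 members, 61 windows in all, since a gene can have several starts. SLC2A3, PFKFB2 and SLC16A1 had no window. Of the 61 windows, 38 held ACGTG or GCGTG, against 48.5% of all 35116 windows of the same length. ACGTG alone was in 23 windows (21.4% of all windows), GCGTG in 26 (36.5% of all) and CACGTG, an E-box that contains ACGTG, in 8 (7.26% of all). These matches are a description of letters and not of binding.

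PPA2 stood at 79.8 and 84.1 RPKM in the normoxia controls and at 5.88 and 5.74 RPKM in the knockdown, and at 65.5 and 50.8 FPKM in the hypoxia controls and at 9.85 and 9.0 FPKM in the knockdown. Its level was thus lower in each knockdown library than in each control library, with a fold change of 12.2 in normoxia and 5.64 in hypoxia on the log2(value + 1) scale. RPKM and FPKM are reads or fragments per kilobase of gene, scaled to the size of the library. Both tables were normalized separately by the authors, so knockdown was compared within each table, and all changes below are log2 fold changes on the log2(value + 1) scale, knockdown minus control, ± SE with 2 libraries a group. That scale understates changes of low values. A gene is said to have fallen or risen at a limma adjusted p under 0.05 over all genes tested. Of 11 colon epithelium markers, 8 averaged at least 1 in each table, while CDX1, CEACAM5 and LGALS4 did not, and no marker of blood cells, fibroblasts or endothelium did. Mitochondrial genome transcripts held 10.7% to 12.1% of the summed level in the 4 normoxia libraries, 7.60% and 8.45% in the hypoxia controls and 12.4% and 12.5% in the hypoxia knockdown.

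The glycolysis, PFKFB, PDK and glycogen genes mostly fell with PPA2 knockdown in normoxia, while in hypoxia more of them rose than fell. In normoxia 20 of the 33 tested members fell, 2 rose (PDK3 and PGM2) and 11 were not called. Of all 14090 genes tested there, 11.7% fell and 22.5% rose. The median of the members was −0.31, beside 0.07 for all genes. In hypoxia 5 members fell (SLC2A1, SLC2A3, PFKM, PFKFB2 and LDHB), 16 rose and 12 were not called, while 33.8% of all 13080 genes tested fell and 24.6% rose. The median of the members was 0.25, beside −0.06 for all genes. PDK4 was below the filter of a mean of 1 in both tables and was not tested.

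The scaling of the libraries bears on these counts. Leaving out mitochondrial genome transcripts, here and below, also rescaled the remaining genes to a common sum in each library. With this step the median of all genes in hypoxia went from −0.06 to 0.11. The split of all genes went from 33.8% lower and 24.6% higher to 22.9% and 34.8%, and the members to 3 that fell and 21 that rose. In normoxia the same step moved the median of all genes from 0.07 to 0.12 and left 18 members that fell and 3 that rose. Centring each normoxia library on its median moved the split of all genes from 11.7% lower and 22.5% higher to 18.5% and 14.9%, with 22 members that fell and 0 that rose. Quantile normalization gave a split of 14.5% and 15.9% in normoxia. Rescaling alone, with mitochondrial transcripts kept, brought the hypoxia median of all genes to 0.05 and their split to 26.1% and 30.02%. The members then came to 3 that fell and 20 that rose in hypoxia. In normoxia rescaling alone brought the median of all genes to 0.11, with 19 members that fell and 2 that rose.

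**Figure D1:**
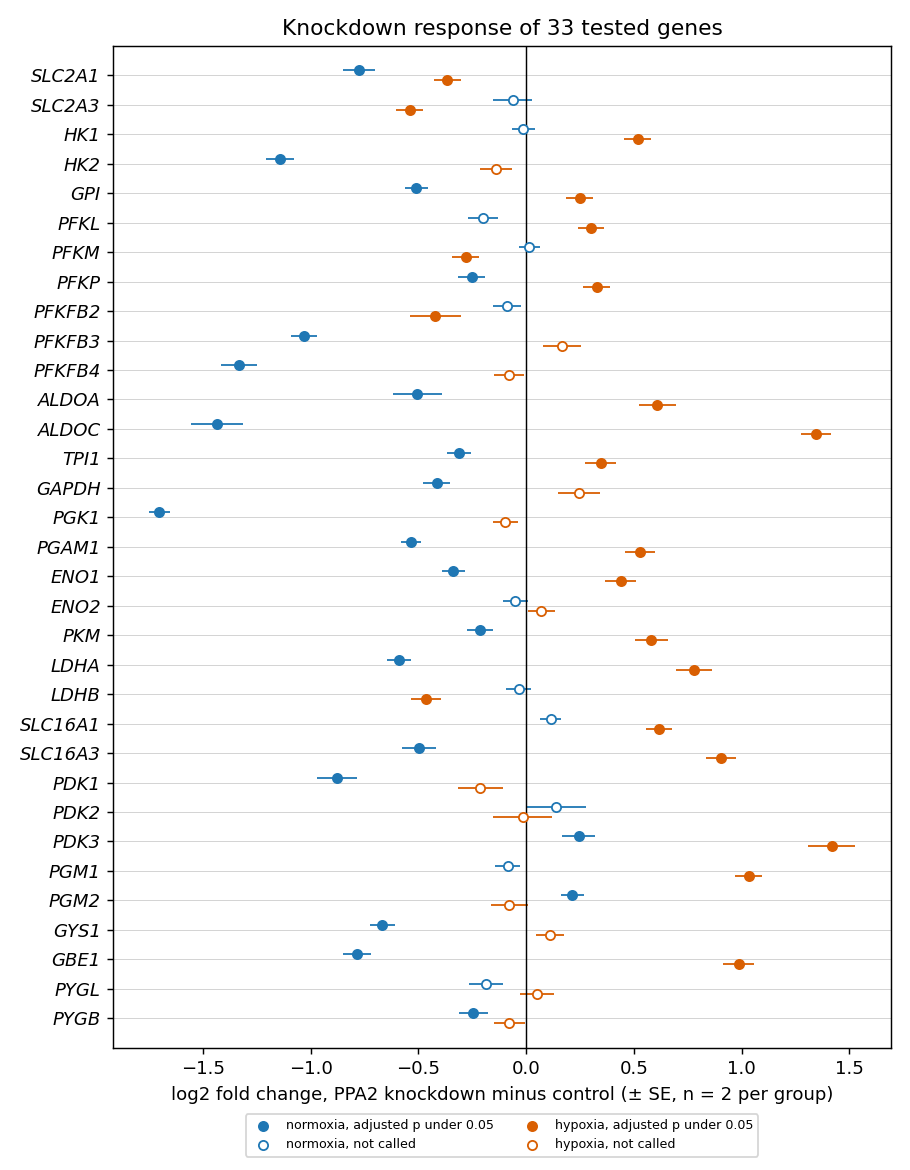
Log2 fold change of knockdown against control for the 33 tested genes, with bars of 1 SE (n = 2 libraries a group), in normoxia (blue) and hypoxia (orange). Filled points passed a limma adjusted p of 0.05. Most blue points lie left of 0 and most orange points right of it, with ALDOC at −1.44 and 1.35.

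Summed over the 34 members, the share of a library's total level was 2.14% and 2.11% in the normoxia controls and 1.66% and 1.65% in the normoxia knockdown. In hypoxia it was 2.89% and 2.83% in the controls and 3.95% and 3.98% in the knockdown. The groups did not overlap at either oxygen level, and the knockdown share was the lower in normoxia and the higher in hypoxia. Without the 3 members that share over 20% of their exon length with another annotated gene (ALDOA, LDHB and PDK2, left out after the data were seen), the shares were 2.11% and 2.08%, 1.63% and 1.62%, 2.46% and 2.42%, and 3.43% and 3.47%, in the same order.

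Both oxygen levels can be read gene by gene. The pattern of a fall in normoxia and a rise in hypoxia was shown by 11 members, GPI, PFKP, ALDOA, ALDOC, TPI1, PGAM1, ENO1, PKM, LDHA, SLC16A3 and GBE1. A fall in normoxia with no call in hypoxia was shown by 8, HK2, PFKFB3, PFKFB4, GAPDH, PGK1, PDK1, GYS1 and PYGB. SLC2A1 fell at both oxygen levels and PDK3 rose at both. HK1, PFKL, SLC16A1 and PGM1 were not called in normoxia and rose in hypoxia, and SLC2A3, PFKM, PFKFB2 and LDHB were not called in normoxia and fell in hypoxia. PGM2 rose in normoxia and was not called in hypoxia. ENO2, PDK2 and PYGL were called in neither. These patterns are those of the deposited scaling. Under some other scalings PFKFB3, GAPDH, PGK1, ENO2, GYS1 and PYGL were called as rising in hypoxia. The hypoxia falls of SLC2A1, PFKM, PFKFB2 and LDHB lost their calls under some of them. The share of all genes with each of these joint patterns was not counted. Taken singly, 11.7% of all tested genes fell and 22.5% rose in normoxia, and 33.8% fell and 24.6% rose in hypoxia.

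SLC2A1 encodes the basal glucose transporter of most cells and had the higher level of both transporters. It stood at 456 and 397 RPKM in the normoxia controls against 254 and 242 RPKM in the knockdown, and at 557 and 548 FPKM in the hypoxia controls against 429 and 428 FPKM. The knockdown libraries were the lower ones at both oxygen levels and the groups did not overlap. SLC2A1 fell by 0.78 ± 0.08 in normoxia (1.71-fold, adjusted p = 0.00130) and by 0.37 ± 0.06 in hypoxia (1.29-fold, adjusted p = 0.00261). The hypoxia call was lost without knockdown replicate 1 (adjusted p = 0.0720) or knockdown replicate 2 (0.0764), and under quantile normalization (−0.09, adjusted p = 0.0639).

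SLC2A3 encodes a high-affinity glucose transporter. It was at 27.6 and 23.2 RPKM in the normoxia controls and 23.3 and 25.1 RPKM in the knockdown, values that overlapped, with a log2 fold change of −0.06 (95% interval −0.28 to 0.15). In hypoxia it was at 123 and 131 FPKM in the controls and at 86.8 and 86.9 FPKM in the knockdown, and it fell by 0.54 ± 0.06 (1.45-fold, adjusted p = 0.000485). Its near-identical copy SLC2A14 could share reads with it.

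Hexokinases trap glucose in the cell as its phosphate. HK2, the inducible form, was at 63.0 and 57.7 RPKM in the normoxia controls and at 26.1 and 27.5 RPKM in the knockdown, with no overlap, and it fell by 1.14 ± 0.06 (2.21-fold, adjusted p = 0.000307). In hypoxia HK2 was at 71.3 and 79.2 FPKM in the controls and 67.0 and 69.2 FPKM in the knockdown, a change of −0.14 that was not called (95% interval −0.31 to 0.03). HK1, the widely expressed form, had its call in hypoxia instead. It was at 35.4 and 35.1 RPKM against 35.6 and 34.3 RPKM in normoxia, where the groups overlapped, and at 40.1 and 40.0 FPKM against 57.3 and 58.2 FPKM in hypoxia. The hypoxia knockdown libraries were the high ones, and HK1 rose there by 0.52 ± 0.06 (1.43-fold, adjusted p = 0.000498).

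GPI, the isomerase that turns glucose phosphate into fructose phosphate, was at 173 and 164 RPKM against 121 and 115 RPKM in normoxia and fell by 0.51 ± 0.05 (adjusted p = 0.00167). In hypoxia it was at 182 and 175 FPKM in the controls against 210.3 and 214 FPKM and rose by 0.25 ± 0.06 (adjusted p = 0.0121). Control libraries were thus above the knockdown in normoxia and below it in hypoxia. The hypoxia call was lost without knockdown replicate 1 (0.26, adjusted p = 0.123) or knockdown replicate 2 (0.24, adjusted p = 0.160).

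The 3 phosphofructokinase genes, whose products join into mixed tetramers, differed from one another. PFKP, the platelet-type subunit, was at 68.0 and 65.5 RPKM against 58.8 and 53.0 RPKM in normoxia and fell by 0.25 ± 0.06 (adjusted p = 0.0255). Under hypoxia PFKP was at 95.3 and 101 FPKM against 123 and 124 FPKM and rose by 0.33 ± 0.06 (adjusted p = 0.00398). Neither pair of groups overlapped, but the normoxia call was lost without knockdown replicate 2 (−0.18, adjusted p = 0.0538) or either control replicate, 1 (−0.23, 0.127) or 2 (−0.28, 0.0624).

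PFKL, the liver-type subunit, was at 149 and 145 RPKM against 136 and 119.7 RPKM in normoxia, a change of −0.20 that was not called (adjusted p = 0.0670). Centring on the median brought it to −0.29 and an adjusted p of 0.0236. In hypoxia PFKL was at 76.6 and 77 FPKM against 96.9 and 93.0 FPKM and rose by 0.30 ± 0.06 (adjusted p = 0.00490), a call lost without knockdown replicate 1 (0.27, 0.0776). PFKM, the muscle-type subunit, was at 54.01 and 51.8 RPKM against 53.8 and 53.1 RPKM in normoxia, where the groups overlapped. It went from 38.2 and 37.0 FPKM to 30.7 and 30.8 FPKM in hypoxia and fell by 0.28 ± 0.06 (adjusted p = 0.00816). The fall of PFKM was not called without knockdown replicate 1 (adjusted p = 0.0715) or knockdown replicate 2 (0.0706), nor when libraries were rescaled to a common sum (−0.16, 0.0761), when mitochondrial transcripts were left out (−0.09, 0.263) or under quantile normalization (−0.16, 0.0625).

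PFKFB3 and PFKFB4, the hypoxia-inducible makers of the phosphofructokinase activator, were among the members with the largest falls in normoxia. PFKFB3, the form with the strongest bias towards making that activator, went from 43.5 and 40.2 RPKM to 19.93 and 19.96 RPKM and fell by 1.03 ± 0.06 (2.04-fold, adjusted p = 0.000360). PFKFB4 went from 27.1 and 23.3 RPKM to 9.52 and 9.24 RPKM and fell by 1.33 ± 0.08 (2.52-fold, adjusted p = 0.000400). Both knockdown libraries lay far below both controls.

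In hypoxia neither was called. PFKFB3 was at 61.8 and 72.5 FPKM in the controls and 73.3 and 77.2 FPKM in the knockdown, a change of 0.17 (95% interval −0.04 to 0.37). With libraries rescaled to a common sum the change of PFKFB3 was 0.29 and called (adjusted p = 0.0419). It was also called with mitochondrial transcripts left out (0.36, 0.0162) and under quantile normalization (0.32, 0.0190). PFKFB4 was at 68.0 and 74.1 FPKM against 66.5 and 67.9 FPKM, a change of −0.08 (95% interval −0.24 to 0.08). PFKFB2, known as the heart form and a target of insulin signalling, had the lowest level of the family in all 8 libraries. It was at 9.40 and 9.42 RPKM against 8.84 and 8.75 RPKM in normoxia, where it was not called (−0.09, adjusted p = 0.334). In hypoxia it was at 6.11 and 7.61 FPKM against 4.63 and 5.07 FPKM and fell by 0.42 ± 0.12 (adjusted p = 0.0207). That call was lost without control replicate 2 (−0.28, 0.0673) or knockdown replicate 1 (−0.37, 0.0974), and when libraries were rescaled to a common sum (−0.35, 0.0836) or mitochondrial transcripts were left out (−0.28, 0.135).

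Aldolase splits the fructose bisphosphate into trioses. ALDOC, the form best known from brain, had the largest opposite changes of the 33 tested members. It went from 6.65 and 5.46 RPKM to 1.47 and 1.73 RPKM in normoxia and fell by 1.44 ± 0.12 (2.70-fold, adjusted p = 0.000838). In hypoxia it went from 11.3 and 11.6 FPKM to 29.9 and 31.4 FPKM and rose by 1.35 ± 0.07 (2.54-fold, adjusted p = 3.61e-05). The knockdown libraries were the lowest of the normoxia table and the highest of the hypoxia table.

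ALDOA, the muscle and ubiquitous form, went from 12.7 and 10.1 RPKM to 8.14 and 7.30 RPKM in normoxia and fell by 0.51 ± 0.11 (adjusted p = 0.0169). That call was lost without control replicate 1 (−0.35, 0.0562) or knockdown replicate 2 (−0.43, 0.0780). In hypoxia ALDOA went from 921 and 817 FPKM to 1345 and 1303 FPKM and rose by 0.61 ± 0.08 (adjusted p = 0.000979). The gene is listed at a far lower level in the normoxia table than in the hypoxia table. It shares 42.3% of its exon length with AC093512.2, an annotated gene on the same strand, which was listed at 0.827 to 1.19 RPKM and at 10.8 to 38.5 FPKM. The part of shared exons in the level of ALDOA was not tested.

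The later steps of the pathway, from triose phosphates to pyruvate, held the most abundant members. TPI1, which interconverts both trioses, was at 754 and 719.8 RPKM against 602 and 586 RPKM in normoxia and fell by 0.31 ± 0.05 (adjusted p = 0.00729). It was at 664 and 622 FPKM against 802 and 833 FPKM in hypoxia and rose by 0.35 ± 0.07 (adjusted p = 0.00578), a call lost without knockdown replicate 1 (0.37, 0.0920) or knockdown replicate 2 (0.32, 0.145). The knockdown groups of TPI1 lay below control in normoxia and above it in hypoxia. Under quantile normalization its normoxia value was −0.12 and not called (adjusted p = 0.103).

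GAPDH, which oxidises the triose and is often used as a loading control, had the highest level of all members. In normoxia it went from 3353 and 3308 RPKM to 2557 and 2443 RPKM and fell by 0.41 ± 0.06 (1.33-fold, adjusted p = 0.00470). Its hypoxia values were 3779 and 3360.0 FPKM against 4233 and 4214 FPKM, a change of 0.25 that was not called (adjusted p = 0.0621) although the groups did not overlap. With libraries rescaled to a common sum the hypoxia change was 0.37 and called (adjusted p = 0.000876).

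PGK1 makes the first ATP of the pathway and had the largest fall of the members in normoxia on the log2(value + 1) scale, whereas with a pseudocount of 0.1 ALDOC fell more (−1.85 against −1.72 for PGK1). Its level was 229.7 and 221 RPKM in the controls and 68.0 and 69.1 RPKM in the knockdown, with a fall of 1.70 ± 0.05 (3.26-fold, adjusted p = 3.99e-05). Both knockdown libraries were far under both controls and close to each other. In hypoxia PGK1 was at 223 and 226 FPKM in the controls and at 209.9 and 209.5 FPKM in the knockdown, a change of −0.10 that was not called (95% interval −0.24 to 0.05). Its sign in hypoxia turned under other scalings, to 0.03 with libraries rescaled, to 0.10 with mitochondrial transcripts left out and to 0.14 under quantile normalization, where it was called (adjusted p = 0.0350).

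PGAM1, the phosphoglycerate mutase, was at 313 and 305 RPKM against 211 and 215 RPKM in normoxia and fell by 0.53 ± 0.05 (adjusted p = 0.00108). It was at 256 and 237 FPKM against 348 and 364 FPKM in hypoxia and rose by 0.53 ± 0.07 (adjusted p = 0.000769). The sizes of these opposite changes were nearly equal.

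ENO1, the main enolase, was at 1503 and 1539 RPKM against 1217 and 1190.0 RPKM in normoxia and fell by 0.34 ± 0.06 (adjusted p = 0.00604). Its hypoxia levels were 1209 and 1199 FPKM against 1630.0 and 1632 FPKM and rose by 0.44 ± 0.07 (adjusted p = 0.00203), a call lost without knockdown replicate 1 (adjusted p = 0.0927) or knockdown replicate 2 (0.0932). ENO2, the neuronal enolase, was not called at either oxygen level. It was at 16.2 and 15.6 RPKM against 15.5 and 15.1 RPKM in normoxia (95% interval of the change −0.19 to 0.09). In hypoxia it was at 58.8 and 56.4 FPKM against 61.0 and 60.1 FPKM (−0.08 to 0.22). Other scalings called a rise of ENO2 in hypoxia, with libraries rescaled (0.19, adjusted p = 0.0305) or mitochondrial transcripts left out (0.27, 0.00833). Quantile normalization did too (0.21, 0.0186).

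PKM, the pyruvate kinase gene, whose M1 and M2 splice forms a gene table cannot tell apart, was at 1374 and 1332 RPKM against 1207 and 1125 RPKM in normoxia and fell by 0.22 ± 0.06 (adjusted p = 0.0370). PKM in hypoxia was at 1242 and 1168 FPKM against 1794 and 1807 FPKM and rose by 0.58 ± 0.08 (adjusted p = 0.000779). The groups did not overlap at either oxygen level, yet the normoxia call was weak. It was lost without knockdown replicate 2 (−0.16, 0.110) or either control replicate, 1 (−0.19, 0.175) or 2 (−0.24, 0.0955), and the value was 0.04 under quantile normalization (adjusted p = 0.496).

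Several of these enzymes have processed pseudogenes, among them GAPDH, PGK1, TPI1, PGAM1, ENO1, LDHA and LDHB, and the handling of reads with several matches is not given in the sources used here.

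**Figure D2:**
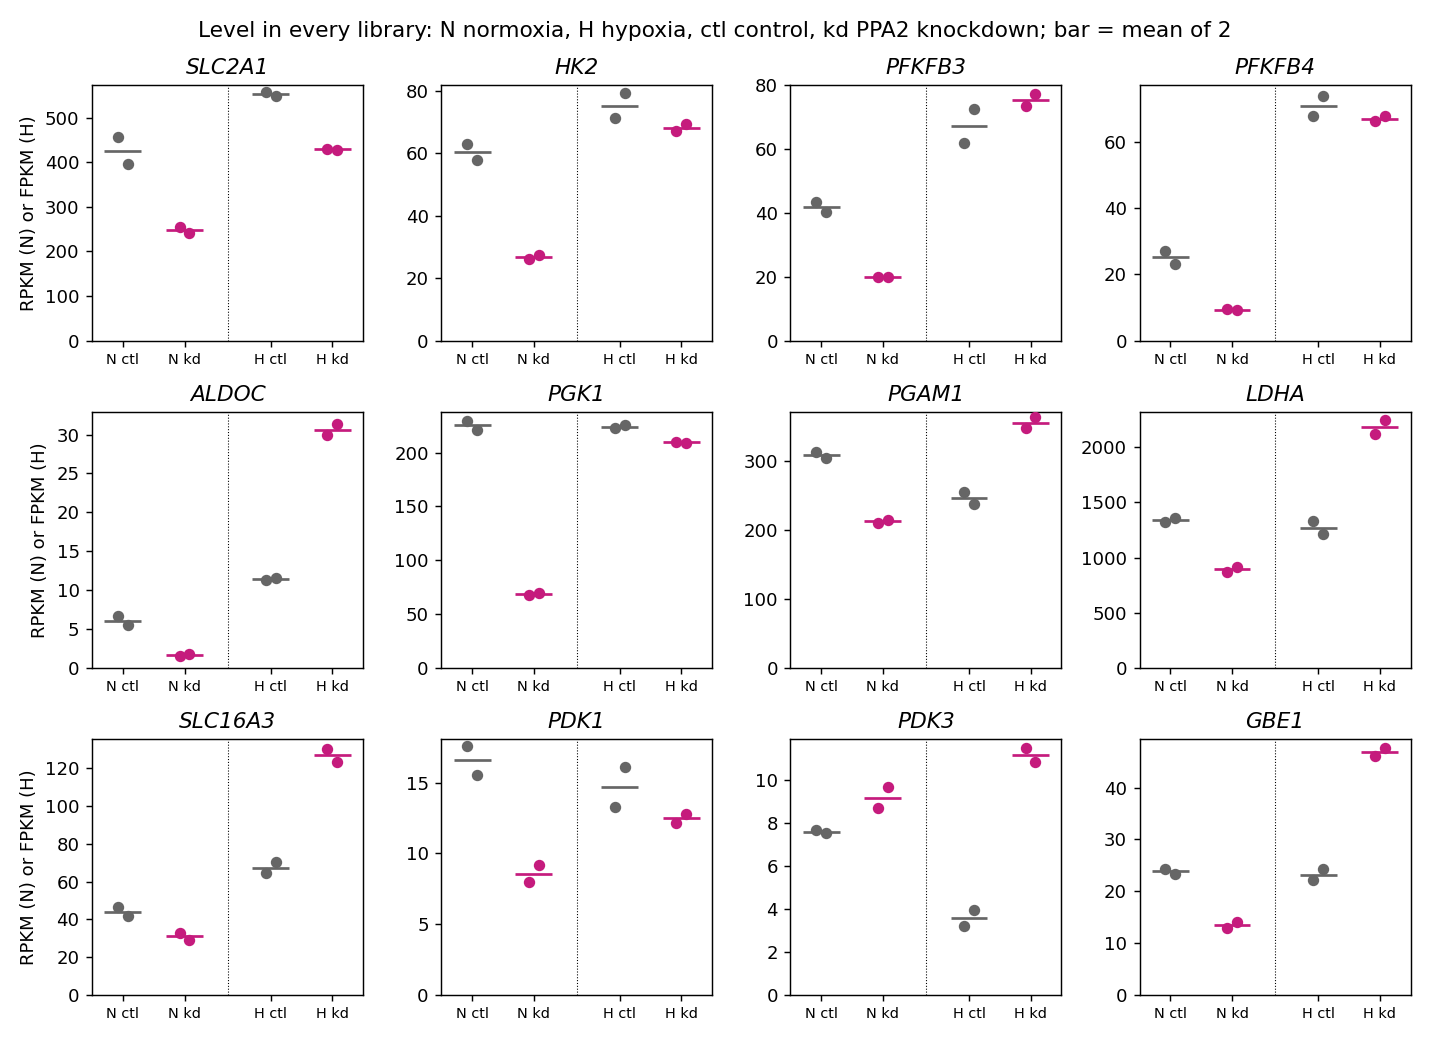
Level of 12 members in every library (points) with the mean of 2 (bars), in RPKM for normoxia (N) and FPKM for hypoxia (H), control (ctl, grey) and PPA2 knockdown (kd, magenta). Each axis starts at 0, and the tables on either side of the dotted line were normalized separately. PGK1 drops to 68.0 and 69.1 in the normoxia knockdown, and LDHA, SLC16A3 and GBE1 are highest in the hypoxia knockdown.

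LDHA encodes the lactate dehydrogenase subunit that favours lactate formation. It went from 1326 and 1362 RPKM to 871 and 912 RPKM in normoxia and fell by 0.59 ± 0.06 (1.51-fold, adjusted p = 0.00127). In hypoxia it went from 1329 and 1216 FPKM to 2117 and 2251 FPKM and rose by 0.78 ± 0.08 (1.72-fold, adjusted p = 0.000363). The knockdown libraries were thus the low ones in normoxia and the high ones in hypoxia.

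LDHB, the subunit that favours the reverse reaction, moved otherwise. It was at 119 and 126 RPKM against 115 and 124 RPKM in normoxia, where the groups overlapped and the change of −0.03 was not called (95% interval −0.18 to 0.11). In hypoxia it went from 895 and 839.5 FPKM to 631 and 625 FPKM and fell by 0.46 ± 0.07 (1.38-fold, adjusted p = 0.00147). The fall was −0.09 and not called under quantile normalization (adjusted p = 0.0716). LDHB shares 33.4% of its exon length with AC010197.2 on the same strand, a gene listed at 0 to 0.112 in all 8 libraries.

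Monocarboxylate transporters carry lactate out of the cell. SLC16A3, the transporter of strongly glycolytic cells, went from 46.3 and 41.9 RPKM to 32.96 and 29.05 RPKM in normoxia and fell by 0.50 ± 0.08 (adjusted p = 0.00575). In hypoxia it went from 64.6 and 70.1 FPKM to 130.3 and 123 FPKM and rose by 0.90 ± 0.07 (1.87-fold, adjusted p = 0.000109). SLC16A1, the widely expressed transporter, was higher than SLC16A3 in every library. It was at 178 and 181 RPKM against 190.2 and 199 RPKM in normoxia, a change of 0.11 that was not called (adjusted p = 0.121). It went from 135 and 135.5 FPKM to 208 and 207 FPKM in hypoxia and rose by 0.62 ± 0.06 (1.53-fold, adjusted p = 0.000223).

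The PDK genes went apart. PDK1, a HIF target, went from 17.6 and 15.6 RPKM to 7.97 and 9.18 RPKM in normoxia and fell by 0.88 ± 0.09 (1.84-fold, adjusted p = 0.00161). PDK1 in hypoxia was at 13.2 and 16.1 FPKM against 12.2 and 12.8 FPKM, a change of −0.21 that was not called (95% interval −0.46 to 0.03).

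PDK3 rose at both oxygen levels. In normoxia it was at 7.66 and 7.54 RPKM against 8.73 and 9.67 RPKM and rose by 0.24 ± 0.08 (adjusted p = 0.0489). That call was lost without knockdown replicate 2 (0.18, 0.138) or either control replicate, 1 (0.26, 0.159) or 2 (0.23, 0.189). In hypoxia PDK3 went from 3.20 and 3.95 FPKM to 11.5 and 10.8 FPKM and rose by 1.42 ± 0.11 (2.67-fold, adjusted p = 0.000109). Both knockdown libraries stood well above both controls there.

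PDK2 and PDK4 were low throughout. PDK2 was at 1.53 and 1.41 RPKM against 2.01 and 1.46 RPKM, and at 2.31 and 2.57 FPKM against 2.11 and 2.72 FPKM, with overlapping groups at both oxygen levels and no call. It shares 38.5% of its exon length with SAMD14 on the opposite strand, a gene listed below 0.31 in every library. PDK4 was at 0.545 and 0.443 RPKM against 0.567 and 0.750 RPKM, and at 0.770 and 0.939 FPKM against 0.819 and 0.980 FPKM.

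Phosphoglucomutases link glucose phosphate to glycogen. PGM1, the main one, was at 40.9 and 43.5 RPKM against 40.8 and 38.5 RPKM in normoxia, a change of −0.09 that was not called (adjusted p = 0.296). In hypoxia it went from 37.4 and 36.2 FPKM to 75.5 and 77.05 FPKM and rose by 1.03 ± 0.06 (2.05-fold, adjusted p = 4.97e-05). The hypoxia knockdown libraries had the highest PGM1 values of their table. PGM2, which acts mainly on pentose phosphates, was at 46.6 and 49.4 RPKM against 55.7 and 56.0 RPKM in normoxia and rose by 0.21 ± 0.05 (adjusted p = 0.0236). The rise was not called without knockdown replicate 2 (0.21, 0.0507) or either control replicate, 1 (0.17, 0.215) or 2 (0.25, 0.0724), nor with libraries centred on the median (0.13, 0.119). In hypoxia PGM2 was at 26.6 and 30.1 FPKM against 25.7 and 27.9 FPKM and the groups overlapped.

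GYS1, the glycogen synthase of muscle and most tissues, went from 26.5 and 26.5 RPKM to 16.8 and 15.9 RPKM in normoxia and fell by 0.67 ± 0.06 (1.59-fold, adjusted p = 0.000968). GYS1 in hypoxia was at 33.03 and 32.3 FPKM against 35.9 and 34.8 FPKM, a change of 0.11 that was not called (95% interval −0.04 to 0.26). GBE1, the branching enzyme, went from 24.4 and 23.3 RPKM to 12.9 and 14.0 RPKM in normoxia and fell by 0.78 ± 0.07 (1.72-fold, adjusted p = 0.000875). In hypoxia GBE1 went from 22.1 and 24.3 FPKM to 46.1 and 47.6 FPKM and rose by 0.99 ± 0.07 (1.98-fold, adjusted p = 9.24e-05). GYS1 and GBE1 thus both fell in normoxia, and on the deposited scaling GBE1 alone of them rose in hypoxia. With libraries rescaled to a common sum the hypoxia change of GYS1 was 0.235 and called (adjusted p = 0.0238). It was also called with mitochondrial transcripts left out (0.306, 0.00741) and under quantile normalization (0.235, 0.0173).

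The glycogen phosphorylases, which break glycogen down, moved little. PYGB, the brain form, was at 29.8 and 28.9 RPKM against 26.1 and 23.2 RPKM in normoxia and fell by 0.24 ± 0.07 (adjusted p = 0.0369). That call was lost without knockdown replicate 2 (−0.16, 0.0786) or either control replicate, 1 (−0.22, 0.162) or 2 (−0.27, 0.0950). In hypoxia PYGB was at 20.8 and 20.8 FPKM against 20.4 and 19.0 FPKM and was not called. PYGL, the liver form, was at 11.5 and 11.1 RPKM against 9.22 and 10.5 RPKM (−0.19, adjusted p = 0.111) and at 14.8 and 13.9 FPKM against 15.4 and 14.4 FPKM (0.05, adjusted p = 0.604).

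Knockdown libraries lay wholly below control for 25 of the 33 tested members in normoxia and wholly above for 3, beside 26.4% and 44.2% of all tested genes. In hypoxia they lay below for 10 and above for 20, beside 44.9% and 35.5% of all tested genes. With 2 libraries a group an exact permutation test of a single gene cannot go below 0.33, so limma's sharing of the spread across genes carries these calls.

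The difference between both knockdown responses was tested as the interaction of knockdown and oxygen level in a limma fit of all 8 libraries. Oxygen level and table are the same split, so a difference between oxygen levels and one between the RPKM and FPKM tables cannot be told apart in this term. Of the 33 tested members, 24 had a higher response in hypoxia than in normoxia, 4 had a lower one and 5 were not called. Of all 13585 genes tested, 13.4% had a higher and 29.0% a lower response. The median difference was 0.66 for the members and −0.13 for all genes. With libraries centred on the median, the split of all genes was 21.7% higher and 19.2% lower, and that of the members 27 and 2. The split of all genes was 18.4% higher and 20.2% lower with mitochondrial transcripts left out, and 21.04% and 20.3% under quantile normalization.

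ALDOC led, with a response 2.78 ± 0.14 higher in hypoxia (adjusted p = 1.97e-06). GBE1 followed with 1.77 ± 0.10 (adjusted p = 4.39e-06) and PGK1 with 1.61 ± 0.07 (adjusted p = 1.25e-06). These 3 reached that difference by different routes, since ALDOC and GBE1 fell in normoxia and rose in hypoxia, whereas PGK1 fell in normoxia and was not called in hypoxia. SLC16A3 (1.40 ± 0.11) and LDHA (1.37 ± 0.09) resembled GBE1. On the deposited scaling PFKFB4 (1.25 ± 0.11), PFKFB3 (1.20 ± 0.11) and HK2 (1.0 ± 0.10) resembled PGK1. Under some other scalings PFKFB3 was called as rising in hypoxia. PDK3 (1.17 ± 0.14) and PGM1 (1.12 ± 0.09) came to a like value through a large rise in hypoxia.

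The 4 members with a lower response in hypoxia were SLC2A3 (−0.48 ± 0.11, adjusted p = 0.00826), LDHB (−0.43 ± 0.09, adjusted p = 0.00342), PFKM (−0.30 ± 0.08, adjusted p = 0.0132) and PGM2 (−0.29 ± 0.10, adjusted p = 0.0466). None of these 4 was called under quantile normalization. Without normoxia control replicate 2 the PFKM value was −0.27 and not called (adjusted p = 0.0691). The PGM2 difference was not called without any single one of 7 of the 8 libraries (adjusted p = 0.0534 to 0.162), the exception being hypoxia control replicate 1. The 5 members not called were PFKFB2, ENO2, PDK2, PYGL and PYGB, with differences from −0.33 (PFKFB2, adjusted p = 0.0784) to 0.24 (PYGL, adjusted p = 0.113).

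Within isoform families the shares of the summed per-length level changed hands. HK2 made up 64.0% and 62.2% of both hexokinases in the normoxia controls and 42.3% and 44.5% in the knockdown. In hypoxia HK2 made up 64.0% and 66.5% in the controls and 53.9% and 54.3% in the knockdown. HK2 was thus the major form in each control library, the minor one in the normoxia knockdown and the major one again in the hypoxia knockdown.

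PDK1 made up 64.4% and 62.4% of the PDK level in the normoxia controls and 41.4% and 43.6% in the knockdown, and 67.8% and 68.4% against 45.8% and 46.8% in hypoxia. The PDK3 share moved the other way, from 28.03% and 30.2% to 45.3% and 45.9% in normoxia and from 16.4% and 16.7% to 43.2% and 39.7% in hypoxia. The PDK1 share was thus lower in each knockdown library than in each control library at both oxygen levels.

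LDHA made up 91.8% and 91.5% of the LDHA and LDHB sum in the normoxia controls and 88.3% and 88.1% in the knockdown. In hypoxia it made up 59.8% and 59.2% in the controls and 77.04% and 78.3% in the knockdown. The step between oxygen levels goes with the low LDHB values of the normoxia table, beside which the exon sharing above stands. PGM1 went from 46.7% and 46.8% of both mutases to 42.3% and 40.8% in normoxia and from 58.5% and 54.5% to 74.6% and 73.4% in hypoxia.

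The SLC16A3 share of both lactate transporters went from 20.6% and 18.8% to 14.8% and 12.7% in normoxia and from 32.4% and 34.1% to 38.5% and 37.3% in hypoxia. PFKFB2 made up 11.8% and 12.9% of its family in the normoxia controls and 23.1% and 23.1% in the knockdown, where its own level was not called and PFKFB3 and PFKFB4 fell. SLC2A1 stayed above 80% of both transporters and ENO1 above 95% of both enolases in all 8 libraries. These shares are descriptions, with 2 libraries a group.

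**Figure D3:**
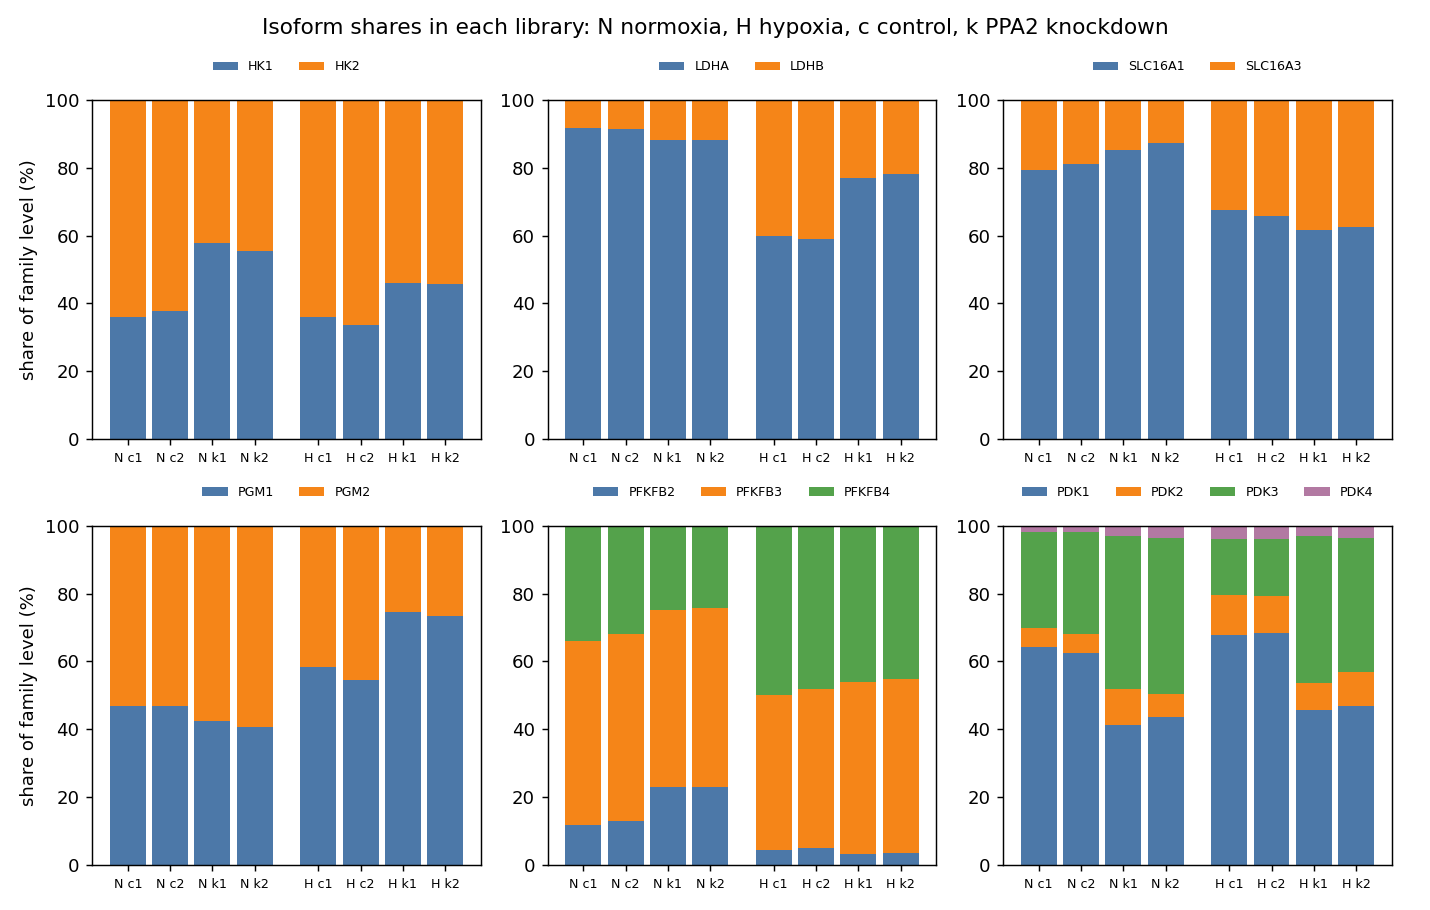
Share (%) of each isoform in the summed RPKM or FPKM of its family in each of the 8 libraries (N normoxia, H hypoxia, c control, k knockdown). HK2 goes below 50% only in the normoxia knockdown bars, and PDK3 is larger in the knockdown bars at both oxygen levels.

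Levels in hypoxia and normoxia can only be set side by side, because oxygen level and table are the same split and the tables were normalized separately. After each library was rescaled to a common sum (TPM), the difference of mean log2(TPM + 1) between hypoxia and normoxia had a median of 0.34 over the 34 members in control cells and 1.10 in knockdown cells, beside −0.07 and −0.11 over 16176 genes. It was above 0 for 25 of 34 members in control cells and for 30 in knockdown cells, and the share of all genes above 0 was not counted. Without the 3 members with shared exons the medians were 0.24 and 1.09, with 22 and 27 of 31 above 0.

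In control cells SLC2A3 (2.55), ENO2 (2.07) and PFKFB4 (1.73) had the largest differences apart from ALDOA and LDHB. In knockdown cells these were ALDOC (4.23), PFKFB4 (3.11), SLC16A3 (2.35), ENO2 (2.28), PFKFB3 (2.22) and SLC2A3 (2.15). PGK1 went from 0.24 in control cells to 1.94 in knockdown cells and LDHA from 0.17 to 1.62. PGM2 was lower in hypoxia in both kinds of cell (−0.51 and −0.72).

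**Figure D4:**
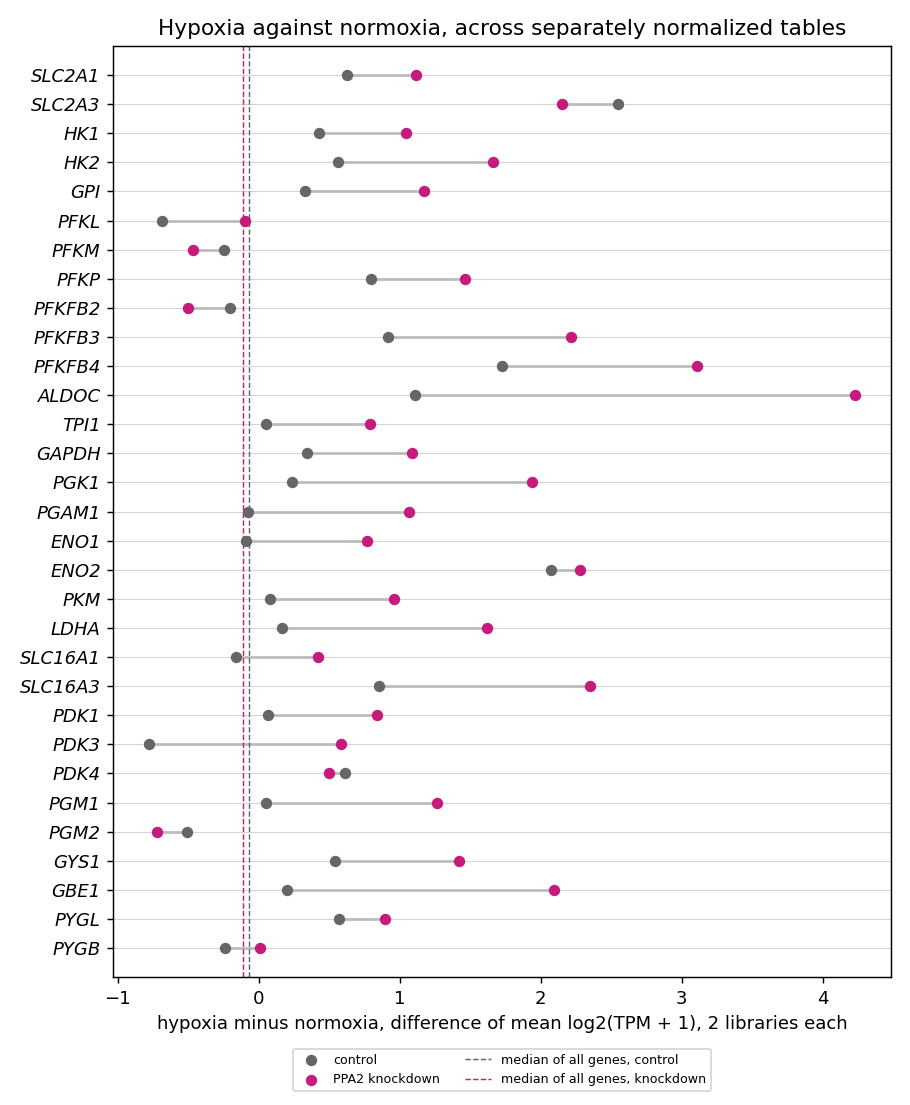
Difference of mean log2(TPM + 1), hypoxia minus normoxia, for control (grey) and knockdown (magenta) cells, 2 libraries each, with dashed lines at the medians of all genes (−0.07 and −0.11). ALDOA, LDHB and PDK2 are left out for shared exons. The magenta point lies right of the grey one for most members, ALDOC at 4.23 against 1.11.

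Neighbouring pathways were described from lists of their other genes. Their counts are to be read beside all tested genes, of which 11.7% fell and 22.5% rose in normoxia. In hypoxia 33.8% of all tested genes fell and 24.6% rose. Of 38 other glycolysis and lactate genes, 19 were tested in normoxia, where 1 fell and 3 rose (median 0.00), and 17 in hypoxia, where 8 fell and 3 rose (median −0.23). PGP, a phosphatase that removes glycolytic by-products, fell in hypoxia (−1.03 ± 0.08), as did ENO3, the muscle enolase (−0.90 ± 0.08), and SLC37A4, the glucose phosphate carrier of the endoplasmic reticulum (−0.98 ± 0.08). SLC37A4 also fell in normoxia (−0.36 ± 0.06). SLC2A10, a glucose transporter family member, rose at both oxygen levels (0.70 ± 0.08 and 0.88 ± 0.12). BSG, the chaperone of the lactate transporters, rose in hypoxia (0.36 ± 0.07), where SLC2A12, a further transporter of the family, rose too (0.76 ± 0.12). In normoxia SLC2A6 (0.38 ± 0.11) and ENOPH1 (0.20 ± 0.05) rose, and ENOPH1, an enzyme of methionine salvage, fell in hypoxia (−0.60 ± 0.08). Single libraries decided the normoxia calls of SLC37A4 (adjusted p = 0.05905 without control replicate 1), ENOPH1 (0.0990 and 0.206 without control replicate 1 or 2) and SLC2A6 (0.0880 to 0.175 without any 1 of the 4), and the call of BSG (0.0726 without hypoxia knockdown replicate 2).

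Of 28 other glycogen genes, 21 were tested in normoxia, where 3 fell and 7 rose (median 0.13), and 20 in hypoxia, where 4 fell and 7 rose (median 0.07). PGM2L1, which makes the sugar bisphosphate cofactor of phosphoglucomutase, rose at both oxygen levels (1.06 ± 0.09 and 1.10 ± 0.13). So did PPP1R3F, a glycogen-targeting subunit of protein phosphatase (0.61 ± 0.14 and 0.73 ± 0.14), and UGP2, which makes the UDP-glucose that glycogen synthase uses (0.26 ± 0.06 and 0.53 ± 0.07). Of 5 subunits of phosphorylase kinase, 3 fell in hypoxia, PHKG2 by 1.49 ± 0.07, PHKG1 by 0.93 ± 0.15 and PHKA2 by 0.65 ± 0.08, and these 3 were not called in normoxia. The other subunits on the list, added after their values were seen, differed from them. PHKA1 rose in hypoxia (0.41 ± 0.09) and was not called in normoxia (0.13), and PHKB rose in normoxia (0.28 ± 0.07) and was not called in hypoxia (0.10). The call of PHKA1 was lost without knockdown replicate 2 (adjusted p = 0.0794), and that of PHKB without control replicate 1 (0.146), without control replicate 2 (0.0765) and without knockdown replicate 2 (0.0681). GYG1, the protein primer of glycogen, fell at both (−0.20 ± 0.06 and −0.54 ± 0.13), and PGM5 fell in normoxia (−0.85 ± 0.16), where PPP1R3D rose (0.30 ± 0.09). PPP1R3F, PHKG1 in hypoxia and PGM5 in normoxia had low values and passed the filter of 1 only through the higher group. PPP1R3F was at 0.596 and 0.623 RPKM in the controls against 1.33 and 1.57 RPKM, and at 0.701 and 0.637 FPKM against 1.81 and 1.73 FPKM. PHKG1 was at 2.06 and 1.98 FPKM in the hypoxia controls against 0.685 and 0.494 FPKM. PGM5 was at 1.90 and 1.48 RPKM in the normoxia controls against 0.621 and 0.373 RPKM. In normoxia the calls of GYG1 (adjusted p = 0.0649 to 0.309) and PPP1R3D (0.0743 to 0.158) were lost without any 1 of the 4 libraries, and that of UGP2 without control replicate 1 (0.132) or knockdown replicate 2 (0.0633).

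Of 11 genes for pyruvate entry into mitochondria, all tested, 3 fell and 2 rose in normoxia (median −0.05) and 6 fell and 1 rose in hypoxia (median −0.22). DLAT and PDHX, parts of the pyruvate dehydrogenase complex that the PDKs act on, fell at both oxygen levels (−0.39 ± 0.05 and −0.52 ± 0.08 for DLAT, −0.38 ± 0.07 and −0.44 ± 0.08 for PDHX). DLD (−0.58 ± 0.09) and PDHA1 (−0.48 ± 0.07), further parts of it, fell in hypoxia. PDPR, a regulator of the phosphatase that reverses PDK action, rose at both (0.27 ± 0.08 and 0.60 ± 0.10). PDP2, such a phosphatase, fell in normoxia (−0.36 ± 0.08), where MPC2, a subunit of the pyruvate carrier, rose (0.28 ± 0.06). The normoxia calls were lost for PDPR without any 1 of the 4 libraries (adjusted p = 0.0695 to 0.200), for MPC2 without control replicate 1 (0.0592) or control replicate 2 (0.0867) and for PDP2 without control replicate 1 (0.0820).

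Of 9 tested pentose phosphate genes, 5 fell and 1 rose in normoxia (median −0.28) and 4 fell and 1 rose in hypoxia (median −0.20). RPIA, the ribose phosphate isomerase (−0.40 ± 0.06 and −0.73 ± 0.09), and TKT, the transketolase (−0.32 ± 0.06 and −0.37 ± 0.06), fell at both oxygen levels. The responses of TKT showed no called difference between oxygen levels (adjusted p = 0.674). H6PD, an enzyme of the endoplasmic reticulum, rose in hypoxia (1.38 ± 0.10), and RPE rose in normoxia (0.17 ± 0.05), a call that did not hold when control replicate 1 (adjusted p = 0.179), the second control (0.259) or the second knockdown library (0.0971) was left out.

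Of 16 tested regulators of glucose genes, 5 fell and 6 rose in normoxia and 5 fell and 7 rose in hypoxia. EGLN3, an oxygen-sensing hydroxylase that HIFs induce, shared the pattern of ALDOC. It went from 42.0 and 37.3 RPKM to 16.8 and 17.6 RPKM and from 57.5 and 57.6 FPKM to 120.6 and 125 FPKM, and its response was 2.24 ± 0.09 higher in hypoxia (adjusted p = 8.92e-07). TXNIP, which restrains glucose uptake, rose at both oxygen levels (2.22 ± 0.06 and 3.97 ± 0.08), and its relative ARRDC4 did too (0.89 ± 0.09 and 1.11 ± 0.12), as did EPAS1, which encodes a HIF subunit (1.10 ± 0.08 and 1.29 ± 0.13). The other HIF subunits on the list were added after their values were seen. HIF1A rose in normoxia (0.41 ± 0.05) and fell in hypoxia (−0.38 ± 0.07). ARNT rose at both (0.29 ± 0.06 and 0.33 ± 0.08), and HIF3A was not tested. MLX and MLXIP, partners in the factors that sense glucose phosphate, fell at both (−0.41 ± 0.05 and −1.15 ± 0.07 for MLX, −0.51 ± 0.06 and −0.27 ± 0.08 for MLXIP), and MLXIPL (−1.55 ± 0.10) and SIRT6 (−0.65 ± 0.09) fell in hypoxia. MYC, which drives LDHA and other members in many tumours, fell in normoxia (−0.67 ± 0.06). The hypoxia call of MLXIP was lost without control replicate 2 (adjusted p = 0.0559), knockdown replicate 1 (0.193) or knockdown replicate 2 (0.116) with no filter on low values (0.0550) and under each other scaling (0.0625 to 0.409).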

How the data were processed

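Poly(A) RNA of 8 libraries was sequenced after directional library preparation, per the labels' protocols. Reads were handled with cutadapt 1.18, Trimmomatic 0.35, FastQC and HISAT2 2.1.0 on GRCh38, per the submitters' processing notes. Which program counted the reads, with which annotation and strand setting, is not given in the sources used here. Normoxia values are RPKM and hypoxia values FPKM, each scaled by the authors and deposited per gene. The tables hold no read totals and depth was not estimated here, so error comes from the spread between replicates. The tables also hold 4 columns of samples outside this series, which were not used.

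A gene entered a test if its values averaged 1 or more in the libraries fitted, on log2(value + 1), and was tested with limma 3.58.1 in R 4.3.3 (moderated linear model with a mean-variance trend) with Benjamini-Hochberg adjustment over all genes, within each table. Responses in normoxia and hypoxia were compared by an interaction term over 8 libraries, with genes matched by the 57069 symbols used once in each table. Tables were handled with Python 3.11.15, pandas 2.3.3 and numpy 2.4.6. Exon sharing was read from GENCODE 29, and promoter windows come from RefSeq on GRCh38.p14. Each fit was first tested on simulated data. All 34 members are named. Of each other pathway list, up to 3 called genes of each sign with the largest change in a table are named, and some genes that this rule would name are not reported here. The members and lists were chosen with earlier results of these data known. Alternatives were other pseudocounts, filters, scalings, thresholds, variance models, a replicate block, a fit of all libraries and each library left out. The alternatives for the other lists and for members with shared exons were chosen after seeing the data.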

Additional observations from a re-analysis of the deposited data

Results flagged for a closer look

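For 28 members the knockdown response differed between hypoxia and normoxia by the interaction test in limma (adjusted p under 0.05), and each difference below is the log2 fold change in hypoxia minus that in normoxia, a split that is also that between the tables. Among glucose transporters it was 0.41 for SLC2A1, and −0.48 for SLC2A3. In the upper pathway it was 0.53 for HK1, 1.0 for HK2, 0.76 for GPI, 0.5 for PFKL, −0.3 for PFKM and 0.58 for PFKP, and among the makers of the phosphofructokinase activator 1.2 for PFKFB3 and 1.25 for PFKFB4. In the later steps it was 1.11 for ALDOA, 2.78 for ALDOC, 0.66 for TPI1, 0.66 for GAPDH, 1.61 for PGK1, 1.06 for PGAM1, 0.78 for ENO1 and 0.8 for PKM. Among lactate genes it was 1.37 for LDHA, −0.43 for LDHB, 0.5 for SLC16A1 and 1.4 for SLC16A3. Among PDK genes it was 0.66 for PDK1 and 1.17 for PDK3. Among glycogen genes it was 1.12 for PGM1, −0.29 for PGM2, 0.78 for GYS1 and 1.77 for GBE1. Of these differences 24 were positive and 4 negative, and the median of all tested genes was −0.13.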

How the results depend on the processing

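Over 99 results of single members and 1679 alternative values, 1517 kept their direction and side of the threshold, 89 lost and 39 gained the call, and 34 changed sign. Of the values that changed sign, 1 belonged to a called result, PKM in normoxia (0.0403 under quantile normalization). The other 33 belonged to results that were not called. With libraries rescaled to a common sum, HK1 (0.027) and LDHB (0.0064) turned in normoxia and PFKFB4 (0.0431), PGK1 (0.0274), PDK2 (0.0864), PGM2 (0.0432) and PYGB (0.0414) in hypoxia. With mitochondrial genome transcripts left out, HK1 (0.0398), ENO2 (0.0013) and LDHB (0.0194) turned in normoxia and HK2 (0.0526), PFKFB4 (0.114), PGK1 (0.0983), PDK2 (0.1495), PGM2 (0.113) and PYGB (0.111) in hypoxia. Centring on the median turned PFKM in normoxia (−0.0702) and PDK2 in hypoxia (0.0483). Quantile normalization turned LDHB in normoxia (0.022) and HK2 (0.0133), PFKFB4 (0.0864), PGK1 (0.139), PGM2 (0.0539) and PYGB (0.049) in hypoxia. With 1 library left out at a time, the normoxia values of SLC2A3 ran from −0.1825 to 0.0561, of HK1 from −0.0408 to 0.0137, of PFKM from −0.014 to 0.045, of LDHB from −0.0846 to 0.0155 and of PDK2 from −0.007 to 0.284, and the hypoxia values of PDK2 from −0.145 to 0.115 and of PGM2 from −0.165 to 0.0102.

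The count of members that fell in normoxia was 13 with no filter on low values and 16 to 22 otherwise, 16 to 21 with 1 library left out. The count that rose there was 0 at an adjusted p under 0.01, with no filter, with libraries centred on the median, without a variance trend and in a fit of all 8 libraries, 1 with a replicate block, and 0 to 2 with 1 library left out. In hypoxia the count that fell was 3 with libraries rescaled, 3 with mitochondrial genome transcripts left out, 2 under quantile normalization and 2 to 7 with 1 library left out, and the count that rose was 12 to 21 over all alternatives. The count with a lower response in hypoxia was 2 at an adjusted p under 0.01, with no filter, with libraries rescaled and with libraries centred, 1 with mitochondrial genome transcripts left out, 0 under quantile normalization and 2 to 5 with 1 library left out. The count with a higher response was 23 to 27. Of all genes tested in hypoxia, 26.1% fell and 30.02% rose with libraries rescaled. With mitochondrial genome transcripts left out 22.9% fell and 34.8% rose, and under quantile normalization 28.7% fell and 29.8% rose. Over all genes tested, calls in normoxia came to 1653 lower and 3165 higher, against 740 and 1407 at an adjusted p under 0.01, 777 and 1572 with no filter, 2607 and 2099 with libraries centred, 954 and 2073 without control replicate 1 and 1078 and 2088 without control replicate 2. The normoxia calls with no filter were out of 34609 genes in place of 14090, or 2.25% lower and 4.54% higher. For the difference of responses the calls came to 3945 and 1815, against 2601 and 1034 at 0.01. They came to 2612 and 2951 with libraries centred and 2761 and 2858 under quantile normalization. The cause was not tested.

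Replicates with the same number did not deviate together (correlation of replicate differences 0.04 in normoxia and −0.02 in hypoxia), so the numbers were not treated as pairs. With the replicate number as a block, 21 members fell and 1 rose in normoxia, 5 fell and 16 rose in hypoxia, and 24 had a higher and 4 a lower response. Without the 3 members that share exons, 19 fell and 2 rose in normoxia, 4 fell and 15 rose in hypoxia, and 23 had a higher and 3 a lower response. For the named genes of the other lists, 873 of 947 alternative values kept the call, 74 lost it and 0 changed sign. HIF1A and ARNT are not in this count.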
